A study of Caenorhabditis elegans with 3 samples.

Results

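FMRFamide-like peptides and the neuropeptide receptors of the npr, frpr and dmsr classes were compared between glp-4 larvae and a wild-type reference in the nematode Caenorhabditis elegans. The members were chosen by name: probes that the platform annotation pairs with exactly 1 gene whose symbol starts with flp-, npr-, frpr- or dmsr- and a number. This gave 97 of 21632 probes, for 22 flp genes and 68 receptor genes (40 npr, 15 frpr and 13 dmsr). RefSeq names 31 flp, 45 npr, 20 frpr and 16 dmsr genes in this species, and those without a single-gene probe are not analysed here. Values on all 3 arrays were available for all 22 flp genes and 67 of the 68 receptor genes, the exception being npr-39, which had no value with prep 3. No filter on low values was applied.

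Total RNA of glp-4 worms in larval stage L3 came as preps 1, 3 and 4, and each of these 3 preps shared a two-colour array with RNA labelled as a wild-type mixed reference. The labels name no glp-4 allele, growth temperature or sex, and do not say what was mixed in the reference, so genotype and stage differ together in every value. They also do not say whether the preps came from separate cultures, so a p-value here measures the spread between 3 preps, which may be technical. The labels do not say whether the reference was a single RNA pool, and the test has no separate term for its own spread. All values are log2 ratios of glp-4 L3 over reference, centred on the median probe of each array, so that -1 is a 2-fold lower and 1 a 2-fold higher ratio than the median probe. This direction is the likely one and not a stated one. The labels put glp-4 in the second channel and before the reference in the description, and 12 of 12 germline genes were low, as a mutant known for its small germ line would give. Were the ratio stored reversed, every direction given here would be reversed too.

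FLP peptides are short signals with an amidated Arg-Phe end. Neurons cut them out of precursor proteins with proprotein convertases and carboxypeptidases, amidate them and pack them in dense-core vesicles. Released peptides act mainly on G-protein-coupled receptors, among them the NPR, FRPR and DMSR proteins, and set feeding, locomotion, egg laying, mating and sleep-like quiescence. A peptide gene is often transcribed strongly in a few neurons, whereas many of the receptor genes have no known ligand or role.

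Across the series, 21239 to 21462 probes per array had a value, and the log2 ratios spread more on the arrays of preps 3 and 4 (SD over probes 0.963 and 1.14) than on that of prep 1 (0.71). The arrays of preps 3 and 4 correlated at r = 0.835 over probes, and prep 1 correlated with them at 0.645 and 0.599. Prep 1 also stood apart in 2 cuticle collagen genes of the adult cuticle: col-19 was at 1.83 with prep 1 and at -2.78 and -3.06 with preps 3 and 4, and bli-1 was at 3.67, 0.46 and 0.11. Other collagen genes of the hypodermal list below differed. With prep 1 sqt-3 was highest (1.39, 0.48 and 0.34) and col-10 lowest (0.48, 2.25 and 2.89). Prep 1 did not stand apart in rol-6 (1.46, 1.65 and 1.15) or dpy-7 (0.96, 0.86 and -0.23), and dpy-5 was at 2.2, 2.9 and 2.8. Of short marker lists, 7 of 9 body wall muscle, 8 of 10 intestinal and 2 of 10 hypodermal genes were called higher. The share over all features was 8.26%. The hypodermal list was mixed, with 4 of 10 means below 0. In the germline list 12 of 12 genes were called lower, against 8.37% of all features. Sets of values below marked with ± are the mean and SD of the 3 arrays (n = 3), and genes are called at an adjusted p under 0.05 (limma, Benjamini-Hochberg over 19580 features).

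The peptide genes lay below the reference and the receptor genes lay around it. Of the 22 flp genes, 9 were lower in glp-4 L3 and 0 higher, where 16.6% of all features were called, 8.37% lower and 8.26% higher. Of the 67 receptor genes, 0 were called, with 6 lower and 3 higher at an unadjusted limma p under 0.05, where 18.2% of all features were lower and 17.1% higher by that rule. The median of the mean log2 ratios was -0.75 for the flp genes and 0.0094 for the receptor genes, beside -0.000032 for all features, which the centring places near 0. On all 3 arrays 16 of 22 flp genes and 15 of 67 receptor genes had a ratio below 0, against 29.4% of all features. In whole animals, fewer cells of a type and less RNA per cell cannot be told apart.

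The 9 called flp genes fell by 0.92 to 1.85 on the log2 scale. The lowest was flp-15, which encodes a ligand of the receptor NPR-3, at -1.80, -1.76 and -2.0 with preps 1, 3 and 4. All 3 arrays thus lay close together, and flp-15 was 3.61-fold lower (-1.85 ± 0.13, adjusted p = 0.00414). Expressed in the carbon dioxide-sensing BAG neurons among others, flp-19 was at -1.14, -1.11 and -1.59 (-1.28 ± 0.27, adjusted p = 0.0119). A wake-promoting peptide gene, flp-2, was at -0.92, -1.33 and -1.56 (-1.27 ± 0.32, adjusted p = 0.0137). Values of flp-12, which acts in male mating behaviour, were -0.72, -1.0 and -1.64 (-1.12 ± 0.47, adjusted p = 0.0313), so its lowest array was again that of prep 4. The NPR-1 ligand gene flp-21 was at -1.20, -0.81 and -1.16 (-1.06 ± 0.21, adjusted p = 0.0171), and here prep 3 was the array nearest to 0.

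The other 4 called genes were lower as well. Values of flp-14 were -0.76, -1.07 and -1.08 (adjusted p = 0.0202), and those of flp-4 were -0.73, -0.95 and -1.15 (adjusted p = 0.0233). The gene flp-7, whose peptides link serotonin signalling to fat loss, was at -0.72, -0.75 and -1.29 (adjusted p = 0.0334). On each array these 3 genes were below the reference, with prep 4 lowest. The first FMRFamide-related gene described in this worm, flp-1, which acts in locomotion, averaged -0.55, -1.21 and -1.35 over its probes (-1.04 ± 0.42, adjusted p = 0.0328). Its probes disagreed: 1 was at 0.47, -0.83 and -0.51 and was not called on its own (adjusted p = 0.497), and the other was at -1.58, -1.59 and -2.19 (adjusted p = 0.00707). Both probes of flp-4 were lower when taken alone, with means of -0.84 and -1.05.

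**Figure D1:**
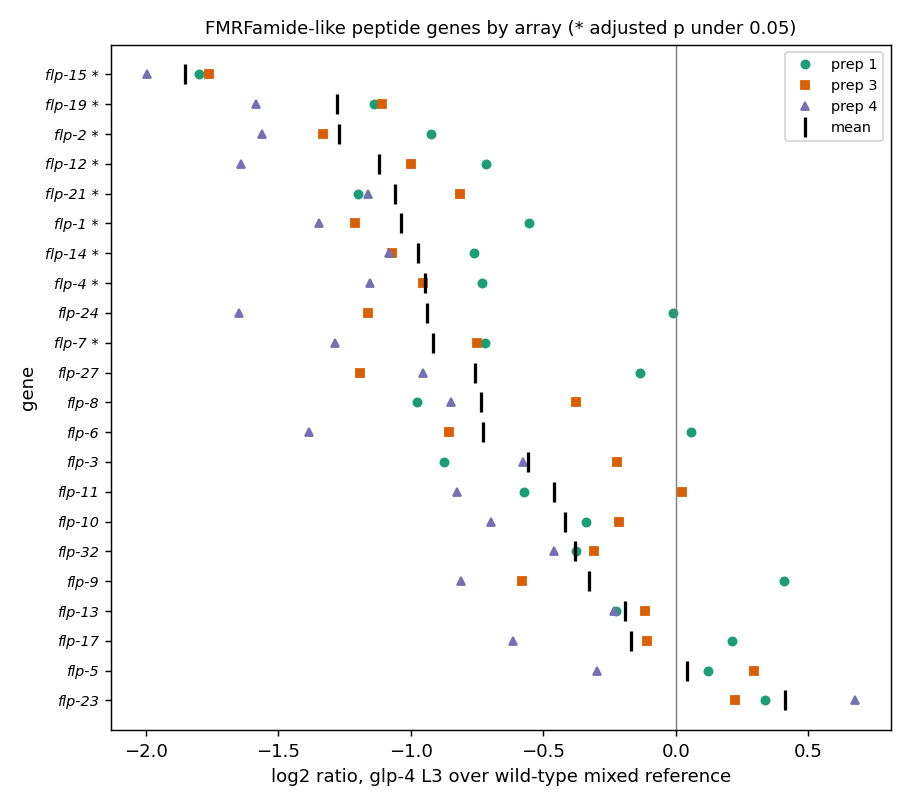
Log2 ratio of glp-4 L3 over wild-type mixed reference (horizontal axis) for the 22 flp genes (vertical axis, lowest mean at the top), with a point for each of preps 1, 3 and 4 and a bar for their mean. The 9 genes marked with an asterisk had an adjusted p under 0.05; flp-15 is lowest on each array, and flp-23 is the only gene above 0 on all 3 arrays.

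Of the 13 flp genes that were not called, 7 were below the reference on all arrays. The stress-induced sleep gene flp-24 was at -0.010 with prep 1, -1.16 with prep 3 and -1.65 with prep 4 (adjusted p = 0.116). A similar split was seen for flp-27, at -0.14, -1.19 and -0.95 (adjusted p = 0.0981). In flp-6, expressed in thermosensory neurons, and flp-9, prep 1 lay on the other side of 0, at 0.058 against -0.86 and -1.39 for flp-6, and at 0.41 against -0.58 and -0.81 for flp-9. These 4 genes were called when prep 1 was left out. The reverse order was seen for flp-8 (-0.98, -0.38 and -0.85, adjusted p = 0.059) and flp-3 (-0.87, -0.22 and -0.58, adjusted p = 0.11), where prep 1 was lowest.

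The peptide genes nearest to or above the reference included several with well-known roles. The gene flp-13, which the ALA neuron uses to induce sleep after stress, was at -0.23, -0.12 and -0.23 (adjusted p = 0.419), with little spread. The gene flp-11, of the sleep-active RIS neuron, was at -0.57, 0.022 and -0.83 (adjusted p = 0.197). The egg-laying inhibitors flp-10 and flp-17 averaged -0.42 ± 0.25 and -0.17 ± 0.42, and the arrays of flp-17 lay on both sides of 0. A low but even value was found for flp-32, at -0.38 ± 0.07 (adjusted p = 0.155). The only means above 0 were those of flp-5 (0.041 ± 0.304) and flp-23 (0.41 ± 0.24, adjusted p = 0.166). The probes of flp-23 were at 0.22, 0.39 and 1.19, and at 0.45, 0.053 and 0.17, so they differed mainly with prep 4.

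Among the npr receptors, 39 genes had means from -0.96 to 0.73 with a median of 0.078, and 31 of the 39 lay within 0.5 of 0. The lowest was npr-17, which encodes an opioid-like receptor, at -0.16, -1.25 and -1.48 with preps 1, 3 and 4 (-0.96 ± 0.71, adjusted p = 0.0838). The FLP-15 receptor gene npr-3 was at -0.016, -1.16 and -1.06 (adjusted p = 0.122), and npr-42 at 0.16, -1.08 and -1.10 (adjusted p = 0.174). In these 3 genes prep 1 lay near 0 while preps 3 and 4 were at least 2-fold lower. Prep 1 was the array nearest to 0 for 52.2% of the receptor genes and 56.4% of all features. The values of npr-38 were -0.23, -0.47 and -0.58. On the high side, npr-30 was at 0.52, 0.80 and 0.60 (0.64 ± 0.15, adjusted p = 0.0569) and npr-41 at 0.41, 0.72 and 0.55 (0.56 ± 0.16, adjusted p = 0.0792), both above 0 on each array. The highest mean, that of npr-31, rested on prep 4, with 0.51, 0.12 and 1.57, and that of npr-40 on prep 1, with 1.17, 0.42 and 0.11. The receptor gene of aggregation and oxygen responses, npr-1, was at -0.040, 0.19 and -0.46, spanning 0. The probes of npr-21 lay on opposite sides of 0, at means of 0.82 (adjusted p = 0.0588) and -0.22, so its average of 0.30 describes neither.

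The frpr receptors lay slightly lower, with a median of -0.12 over 15 genes, of which 6 were below 0 on all arrays. The lowest receptor of any class was frpr-1, at -0.33, -1.49 and -1.56 (-1.13 ± 0.69, adjusted p = 0.0558), again with prep 1 nearest to 0. The gene frpr-18, which encodes a receptor of FLP-2, was at -0.19, -0.84 and -0.82 (adjusted p = 0.0996). More even values were found for frpr-14 (-0.46 ± 0.11, adjusted p = 0.114), while frpr-10 was at -0.43 ± 0.30. The highest frpr genes were frpr-3 (0.34 ± 0.19), frpr-5 (0.30 ± 0.37), frpr-8 (0.28 ± 0.42) and frpr-16 (0.23 ± 0.05). None of these 4 was called. The probes of frpr-3 were at -0.032, 0.88 and 0.31, and at 0.28, -0.082 and 0.67. Each probe thus spanned 0, and the small SD of frpr-3 is that of their average.

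The 13 dmsr receptors, related to the myosuppressin receptors of Drosophila, had means from -0.45 to 0.76 and a median of -0.052. The lowest were dmsr-2 (-0.45 ± 0.20, adjusted p = 0.135), dmsr-5 (-0.30 ± 0.12), dmsr-11 (-0.25 ± 0.26) and dmsr-4 (-0.23 ± 0.34). The highest, dmsr-13, was at 0.14, 0.34 and 1.81 (adjusted p = 0.19), so that its mean was set by prep 4. A second probe of dmsr-12 had no value with prep 4, and the gene averaged 0.39 ± 0.41. The FLP-13 receptor gene dmsr-1 was at -0.30, 0.51 and 0.13. By gene order in RefSeq, dmsr-10, dmsr-11 and dmsr-12 lie next to each other on chromosome V, and dmsr-13, dmsr-14 and dmsr-15 lie in the same stretch. Genes that arose as neighbours can be close in sequence, and whether their probes share signal was not tested.

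**Figure D2:**
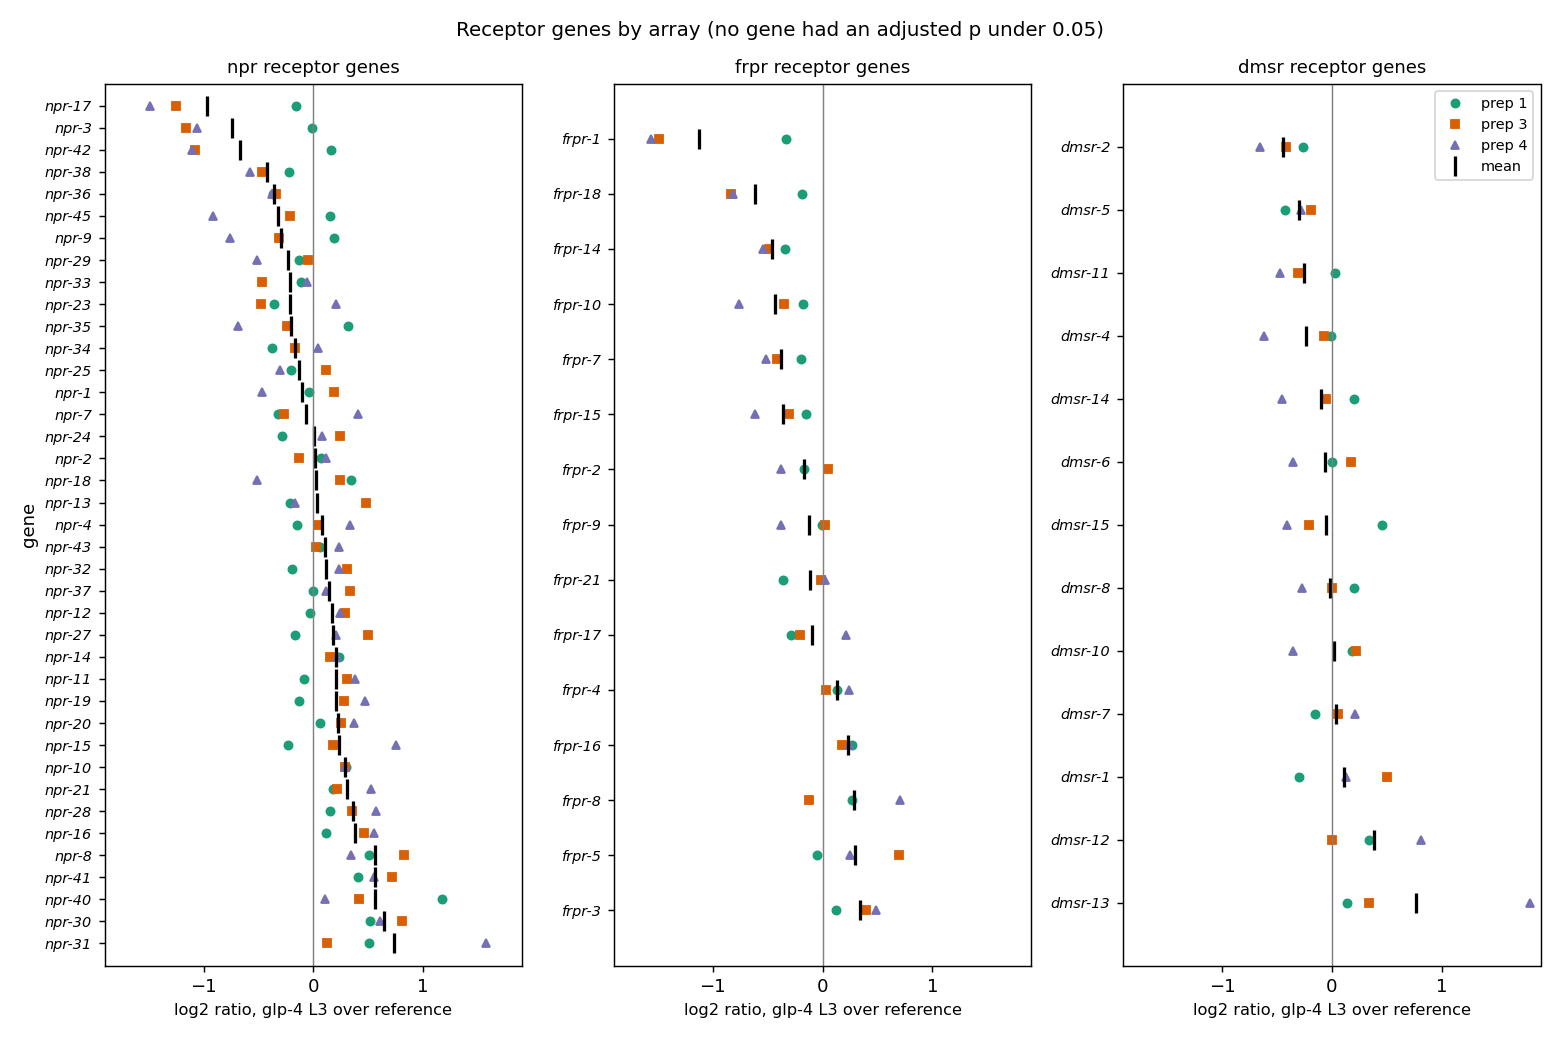
Log2 ratio of glp-4 L3 over wild-type mixed reference (horizontal axes) for the 39 npr, 15 frpr and 13 dmsr receptor genes measured on all arrays (vertical axes, lowest mean at the top), with a point for each of preps 1, 3 and 4 and a bar for their mean. Most genes scatter around 0; npr-17, npr-3, npr-42 and frpr-1 are lower with preps 3 and 4 than with prep 1.

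The difference between the classes had the same direction on each array. The flp median was -0.56, -0.78 and -1.02 with preps 1, 3 and 4, and the receptor median was -0.016, 0.029 and 0.077. The flp median minus the receptor median was therefore -0.55, -0.81 and -1.10. Members are not replicates and were chosen with earlier results known, so this difference is given as a description, with no test. By mean log2 ratio, 6 of 22 flp genes and 1 of 67 receptor genes were at least 2-fold lower, against 7.89% of all features. Within 0.5 of 0 there were 8 flp genes and 56 receptor genes, against 59.9% of all features. Replicate spread was similar, with a median SD over arrays of 0.32 for flp genes and 0.25 for receptor genes, and 0.31 for all features. Over the genes of a class, which share arrays and reference, the ratios with preps 3 and 4 correlated at r = 0.873 for 22 flp genes and 0.691 for 67 receptor genes, and those with preps 1 and 3 at 0.547 and 0.364. Without intensities, dim receptor probes, whose ratios carry little information, could not be told from bright ones, and their part in the receptor values was not tested.

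Peptides and receptors known from work in C. elegans to act together could be set side by side for 9 pairs. In 8 of them the mean ratio of the peptide gene was the lower. The flp genes were lower as a class (medians -0.75 and 0.0094), so this count shows nothing particular to known partners. Some genes, flp-13 and egl-6 among them, recur in the pairs. For FLP-15 and NPR-3 the peptide gene was at -1.85 ± 0.13 and the receptor gene at -0.74 ± 0.63. For FLP-2 and FRPR-18 the values were -1.27 ± 0.32 and -0.61 ± 0.37. For FLP-21 and NPR-1 they were -1.06 ± 0.21 and -0.11 ± 0.33. For FLP-1 and DMSR-7 they were -1.04 ± 0.42 and 0.040 ± 0.184. Both FLP-13 receptors, frpr-4 (0.13 ± 0.10) and dmsr-1 (0.11 ± 0.40), lay near 0 beside flp-13 at -0.19 ± 0.07. The peptide gene flp-11 was at -0.46 ± 0.44, beside frpr-3 at 0.34 ± 0.19. The exception was egl-6, the receptor gene of the egg-laying inhibitors, at -0.33 ± 0.24, which lay between flp-10 and flp-17. These differences within pairs were not tested.

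The list of peptide processing and release genes, which also holds the neprilysin peptidase genes nep-1 and nep-2, was mixed, with 11 of 22 means below 0. Of these 22 measured genes, 5 were lower and 1 was higher, with a list median of -0.021. The higher gene was aex-5, of the defecation motor program. Over all features, 8.37% were lower and 8.26% higher. The convertase gene egl-3 (PC2), which cuts neuropeptide precursors, was at -1.68, -0.97 and -1.14 (-1.26 ± 0.37, adjusted p = 0.0163). The gene of its chaperone 7B2, sbt-1, was at -0.79, -0.96 and -1.40 (-1.05 ± 0.31, adjusted p = 0.0231). The amidation lyase gene pgal-1 was at -0.89, -1.06 and -1.21 (-1.05 ± 0.16, adjusted p = 0.0155). The dense-core vesicle membrane gene ida-1 was at -1.60, -1.0 and -1.30 (-1.30 ± 0.30, adjusted p = 0.0121). Each of these 4 was at least 2-fold lower on average and below the reference on every array, in the range of the called flp genes. The neural gene cab-1 was lower as well (-0.77 ± 0.25, adjusted p = 0.0439).

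Most of the other processing genes did not pass the threshold. The carboxypeptidase E gene egl-21 was at -1.40, -0.32 and -0.64 (adjusted p = 0.0917), and the bifunctional amidating enzyme gene pamn-1 was at -0.24 ± 0.30. The vesicle priming gene unc-31 (CAPS) was at -0.28 ± 0.32, and hid-1, of dense-core vesicle formation, at 0.21 ± 0.19. The convertase gene aex-5, which acts in the defecation motor program, was higher, at 1.03, 1.02 and 0.71 (0.92 ± 0.18, adjusted p = 0.0236). The neprilysin peptidase genes nep-1 and nep-2 were at 0.065 ± 0.441 and 0.44 ± 0.07, without passing the threshold. With arrays scaled to equal spread the higher call of aex-5 and the lower calls of egl-3 and ida-1 were lost (adjusted p = 0.0572, 0.073 and 0.0578), with mean log2 ratios of 1.01, -1.43 and -1.44 on that scale, in the same directions. Without prep 3 or without prep 4 none of the 22 was called.

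**Figure D3:**
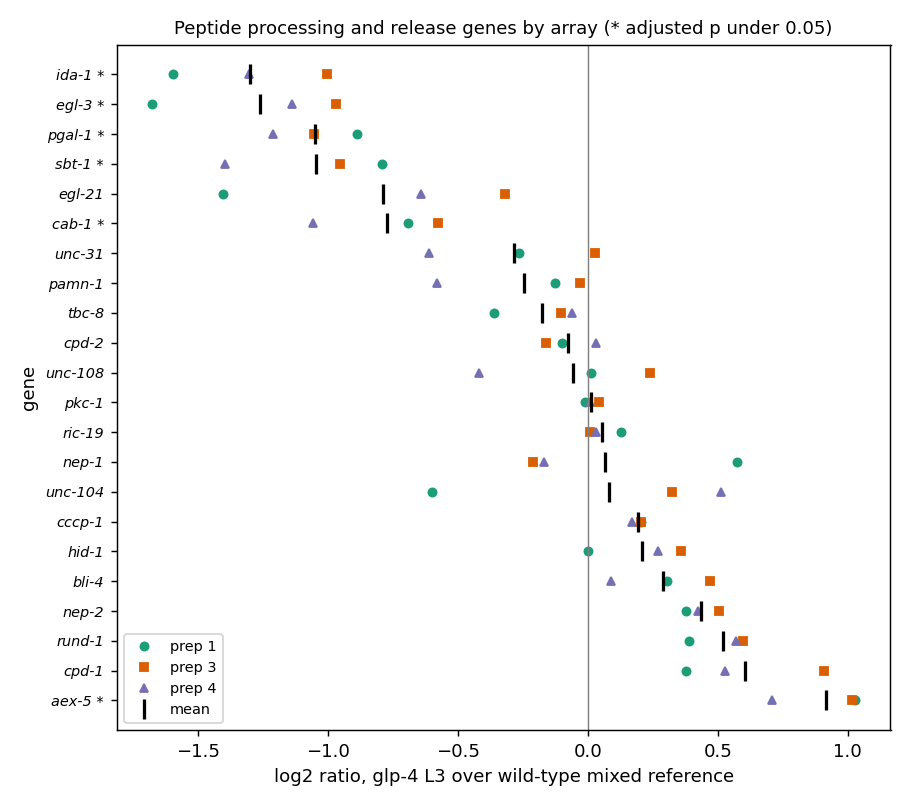
Log2 ratio of glp-4 L3 over wild-type mixed reference (horizontal axis) for the 22 measured peptide processing and release genes (vertical axis, lowest mean at the top), with a point for each of preps 1, 3 and 4 and a bar for their mean. The genes ida-1, egl-3, pgal-1, sbt-1 and cab-1 lie below 0 on each array and were called lower; aex-5 lies above 0 and was called higher (asterisks).

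Other peptide receptors had a median near 0, as the npr, frpr and dmsr genes did. Of 24 measured, 1 was lower and 1 higher, with a median of -0.061. That is 8.33% called, against 16.6% of all features. The lower gene was aexr-3, at -1.40, -1.13 and -1.53 (-1.35 ± 0.21, adjusted p = 0.00884), and the higher gene was fshr-1, a relative of the glycoprotein hormone receptors, at 0.93, 0.98 and 0.56 (0.82 ± 0.23, adjusted p = 0.0352). The call of fshr-1 was lost with arrays scaled to equal spread (0.91, adjusted p = 0.0664) and without prep 3 or prep 4, and that of aexr-3 without prep 3 (adjusted p = 0.0711). Pan-neuronal genes, which every neuron is thought to use, also lay around the reference, with a median of -0.0096. Of 22 measured, 1 was lower and 0 were higher (4.55% called). The lower gene was egl-3, which is in the processing list too; of the 18 outside that list, 0 were called, and 0 were lower and 2 higher at an unadjusted limma p under 0.05 (18.2% and 17.1% of all features). Their means ran from -0.45 for the synaptotagmin gene snt-1 to 0.54 for the active zone gene syd-2. The vesicle genes rab-3 and snb-1 were at -0.39 ± 0.21 and -0.15 ± 0.14, and unc-119 at 0.080 ± 0.417. By array, the pan-neuronal median was -0.23, 0.051 and -0.063, so that the flp median was lower than it on each of the 3 arrays.

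**Figure D4:**
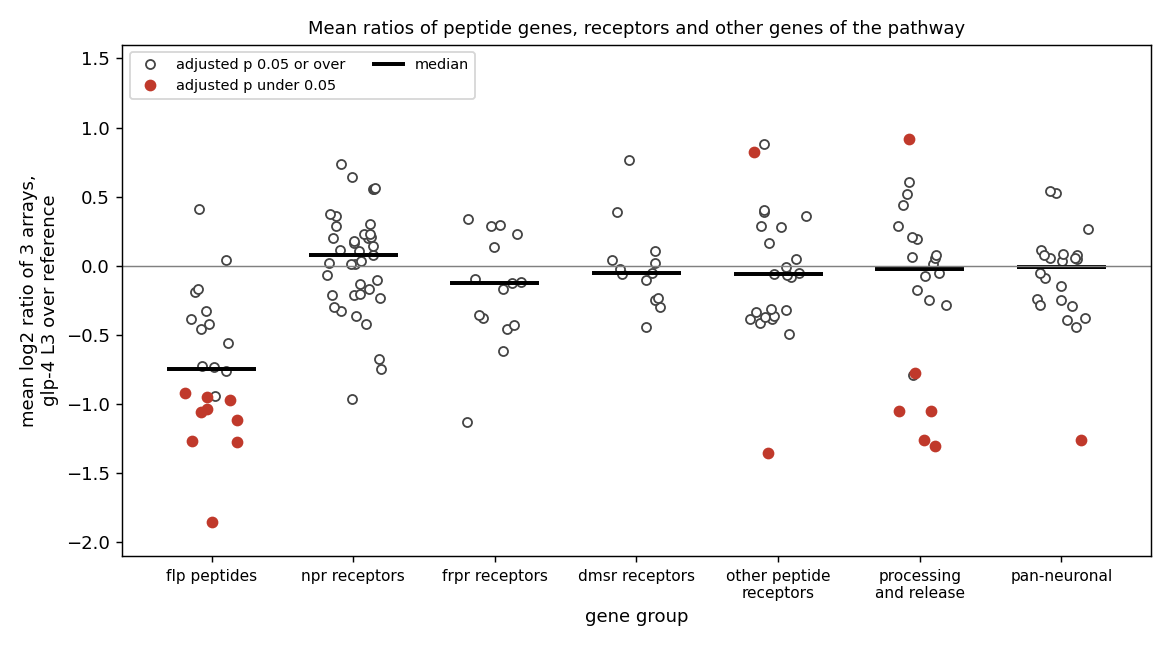
Mean log2 ratio of 3 arrays, glp-4 L3 over reference (vertical axis), for each gene of 7 groups (horizontal axis; points are spread sideways for legibility), with filled points for adjusted p under 0.05 and black lines for group medians. The flp median is -0.75, and the medians of the npr, frpr, dmsr, other receptor, processing and pan-neuronal groups lie between -0.12 and 0.078.

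The calls depended on the preps. Leaving out prep 1 keeps preps 3 and 4, whose array titles share a letter code and a date-like ending that prep 1 lacks. What these stand for is not stated. In that fit 13 of 22 flp genes (59.1%) were lower and 34% of all features were called. Likewise 7 of 67 receptor genes (10.4%) were called: frpr-1, frpr-18, npr-3, npr-17 and npr-42 were lower, and npr-30 and npr-41 were higher. Without prep 3 only 1 flp gene remained, flp-15, where 1.96% of all features were called, and without prep 4 again only flp-15, where 6.3% were called. Array weights estimated by limma from the ratios were 0.45, 2.68 and 0.83 for preps 1, 3 and 4, so that fit rested mostly on prep 3. With these weights 13 flp genes were lower, and 8 receptor genes were lower and 4 higher (17.9% of 67). Over all features 41.4% were called. Under these fits the share of receptor genes called was below, and that of flp genes above, the share of all features, except without prep 4, where 4.55% of the flp genes were called. No flp gene was higher in any of them.

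**Figure D5:**
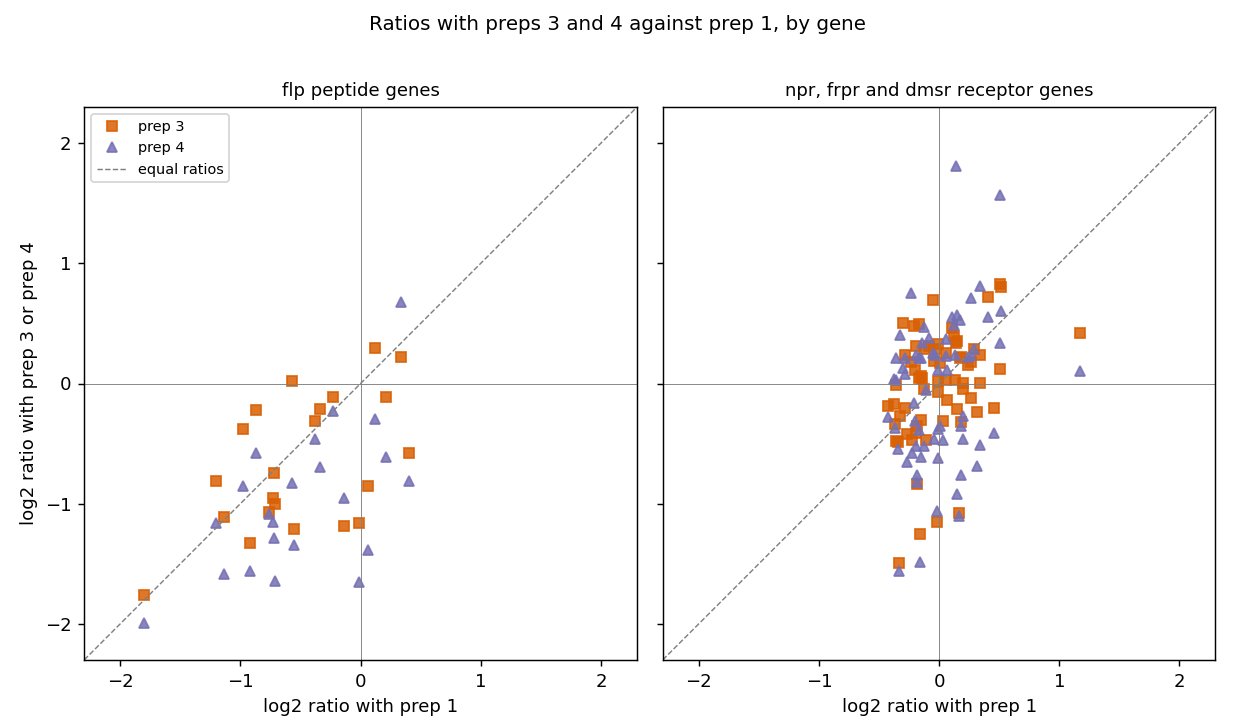
Log2 ratio of glp-4 L3 over reference with prep 3 (squares) and prep 4 (triangles) on the vertical axis against prep 1 on the horizontal axis, for 22 flp genes (left) and 67 receptor genes (right); the dashed line marks equal ratios. In the flp panel most points lie below 0 on both axes, and in the receptor panel most points cluster around 0. The genes npr-17, npr-3, npr-42 and frpr-1 lie lower on the vertical axis than on the horizontal axis.

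Peptide genes on the X chromosome and on autosomes had similar medians of the 3-array means, but not on single arrays. Of the 22 flp genes, 9 (40.9%) lie on X, as do 22 of 68 receptor genes (32.4%), against 14.9% of the 14686 named genes measured. The flp genes on X had a median of -0.73 with 4 of 9 lower, and the 13 on autosomes had a median of -0.76 with 5 lower. With preps 1, 3 and 4 the medians were -0.72, -0.375 and -0.85 on X, and -0.23, -0.86 and -1.08 on autosomes. The X median was thus the lower with prep 1 and the higher with preps 3 and 4. Receptor genes on X and on autosomes had medians of 0.016 and -0.021. Named genes on X as a whole were above the median probe, at 0.20, with 319 higher and 97 lower of 2190, whereas 8 of the 9 X-linked flp genes had a mean below 0. The genes flp-2 and flp-3 are neighbours on X with no protein-coding gene between them, and they had means of -1.27 ± 0.32 and -0.56 ± 0.33.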

How the data were processed

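The authors deposited 1 table of log2 ratios between the channels of an array. That unit was inferred from the values, since all those below 0 (100% per array) are logarithms of ratios with 3 decimals, within 0.01 thousandths. Array medians were -0.0072, -0.025 and -0.026 for preps 1, 3 and 4. How the arrays were scanned, background-corrected and normalized is not given in the sources used here. No scanner files or intensities were used, and dim probes could not be filtered.

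Each array was centred on its median. Probes with 1 annotated gene were named through RefSeq (assembly WBcel235) and averaged per gene; other probes stayed separate. All 19580 features with values on all 3 arrays were tested against 0 with limma 3.58.1 in R 4.3.3, two-sided. The procedure was tested on simulated arrays of equal spread, with effects larger than those of the flp genes. That test does not show how the fit performs on arrays of unequal spread or on effects of the size seen here. Peptide processing, receptor, pan-neuronal and marker lists, the pairs and the naming rule (all called members, the 4 highest and lowest of each class, paired genes, and up to 4 called genes per list and direction) were set, and the members chosen, with earlier results of these data known. Other named genes were added after their values were seen.

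Alternatives were no centring, equal spread, quantile normalization, features on at least 2 arrays, single probes, a robust prior, array weights, a limit of 2-fold, and fits without each prep in turn. No sequences were used here.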

Additional observations from a re-analysis of the deposited data

How the results depend on the processing

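The flp median, lower than the receptor median under each of the 8 alternatives that gave a median, ranged from -1.0 to -0.62 when preps were left out, and between -0.77 and -0.70 otherwise. The receptor median changed sign: it was -0.010 as deposited, -0.0056 with equal spread and -0.0011 with quantile normalization, and ran from -0.058 to 0.043 without single preps, so it has no direction. Called flp genes numbered 1 to 13 without single preps, 8 with equal spread (flp-21 lost) and 6 at 2-fold. Called receptor genes numbered 0 to 7 without single preps, 1 with equal spread, 2 with quantile normalization and 12 with array weights. Over all features, called counts were 386 to 6675 without single preps and 8099 with array weights. Processing genes numbered 0 to 7 without single preps and 3 with equal spread. Other peptide receptors numbered 0 to 3 without single preps, 1 with equal spread, 5 with array weights and 1 at 2-fold. Pan-neuronal genes numbered 0 to 3 without single preps, 0 with equal spread and 3 with array weights. Each fit without a prep has fewer degrees of freedom. Over all features, calls rose from 3255 to 6675 without prep 1 and fell to 386 and 1248 without preps 3 and 4. The causes of these changes were not tested. Missing intensities limit what a ratio near 0 shows. Slide and dye effects could not be fitted, since every array has its own slide and the same channel order.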
